A study of Mus musculus with 7 samples.

Results

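On mouse chromosome 6, a run of neighbouring open chromatin sites had less ATAC-seq signal in Smad2/3 double knockout (DKO) epiblast-like cells (EpiLCs) than in wild-type (WT) EpiLCs. The run spans chr6:68829320-80057380 in the mm10 build, which is 11.23 Mb, and holds 274 sites out of 75880 that the authors listed. Its members are all listed sites between these coordinates. The stretch was chosen by its DKO minus WT differences in concentration, which were low, so those differences are described here without a test.

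ATAC-seq uses the Tn5 transposase to insert sequencing adapters into accessible DNA, so that reads pile up at promoters, enhancers and other open elements. EpiLCs model the primed, post-implantation epiblast, and Smad2 and Smad3 carry Nodal and activin signals from the cell surface to the genome, where they bind with partner factors. A site's signal reflects how often Tn5 inserts there, in the cells pooled for the library. In such bulk libraries, fewer cells with an open site, fewer insertions per cell and fewer copies of the DNA cannot be told apart.

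The series compared WT EpiLCs (CCE line) with Smad2/3 DKO EpiLCs (clone KT15.1F6) after 48 h in activin A and Fgf2, with 3 differentiations per genotype. Each transposition took 75000 cells and was done as 2 technical replicates. Both lines are XY and of 129 background. The DKO clone was made by deleting the promoter and first exon of Smad3, with a CRISPR nickase, in cells homozygous for the Smad2 tm1Rob allele. Each genotype was 1 clone, so clone and genotype cannot be told apart for any value below. A further library, of 100 ng of Tn5-treated genomic DNA, came from WT cells, and the DNA of the DKO clone was not analysed here.

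The table gives each site a concentration, the log2 of the mean normalized reads, for each genotype and for both together, with no value per library. Every value below is therefore a group value, with no SD over the 3 differentiations, and the depth of each library is unknown. No test is given, and the p-value and FDR that the authors list for each site were not used. Each spread given is over sites, and sites are not replicates of a genotype. The 2 inactivated genes were read as a check of the labels. The site at the Smad3 promoter had a concentration of 5.42 in WT and -0.10 in DKO, the lowest value listed for DKO. The promoter site of Smad2 was at 8.35 in WT and 8.28 in DKO, and its allele need not remove that site. Of 7 genes used in EpiLCs as markers, 6 had a promoter site, at 5.66 to 7.71 in WT and 5.63 to 7.72 in DKO, and Otx2 had none.

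Sequences at 4 gene starts and 2 further sites show the kinds of element that the stretch holds. The gene starts are those of Ctnna2 (α-N-catenin, which links cadherins to actin in neurons), whose promoter was the strongest WT site, of Tcf7l1 (a Wnt pathway repressor that acts in pluripotent cells), of Vamp5 (a vesicle SNARE), which is among the promoters with the lowest DKO minus WT difference, and of Lrrtm4 (a synaptic adhesion protein), with the difference closest to 0 of all promoters in the stretch. The bases upstream of every annotated transcript are shown 5′ to 3′ on the gene's strand, from RefSeq on GRCm38.p6, with CG dinucleotides in capitals. They lie at chr6:77979816-77979917 (minus strand), chr6:72789046-72789295 (minus), chr6:72380469-72380718 (minus) and chr6:80018627-80018857 (plus).
Ctnna2: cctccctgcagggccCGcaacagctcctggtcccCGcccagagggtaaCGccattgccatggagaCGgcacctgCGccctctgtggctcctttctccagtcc
Tcf7l1: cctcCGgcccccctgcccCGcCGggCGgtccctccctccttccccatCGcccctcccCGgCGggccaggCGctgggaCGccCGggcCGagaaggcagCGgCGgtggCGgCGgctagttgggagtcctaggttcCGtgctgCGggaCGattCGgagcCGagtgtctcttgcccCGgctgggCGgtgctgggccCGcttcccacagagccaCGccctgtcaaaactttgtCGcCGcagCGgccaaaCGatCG
Vamp5: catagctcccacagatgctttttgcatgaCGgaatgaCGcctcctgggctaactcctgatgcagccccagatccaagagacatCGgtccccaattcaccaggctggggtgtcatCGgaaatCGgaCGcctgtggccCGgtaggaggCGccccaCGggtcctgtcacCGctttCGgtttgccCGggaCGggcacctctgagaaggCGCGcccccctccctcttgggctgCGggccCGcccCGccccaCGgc
Lrrtm4: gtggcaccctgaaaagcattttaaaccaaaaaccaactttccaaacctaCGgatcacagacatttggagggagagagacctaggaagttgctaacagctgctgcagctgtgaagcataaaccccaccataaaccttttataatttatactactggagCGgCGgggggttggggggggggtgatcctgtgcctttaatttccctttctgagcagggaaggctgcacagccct
Only 102 bases are printed for Ctnna2, with 5 CG dinucleotides, and 231 for Lrrtm4, with 3. The full 250 bases before the start held 30 CG dinucleotides at Ctnna2, 29 at Tcf7l1, 19 at Vamp5 and 3 at Lrrtm4. Over 32851 promoters of the RefSeq table the median was 6, with quartiles of 2 and 16. Of the 54 protein-coding genes of the stretch, 51 had a promoter in that table.

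The 2 further sequences are the central 150 bases of a distal site far below the general level of the stretch and of the last site of the stretch, whose DKO and WT concentrations are nearly equal. The first lies at chr6:76379026-76379175, between genes, and the other at chr6:80056951-80057100, in an intron of Lrrtm4. Both are given on the plus strand of GRCm38, and neither holds a CG.
Distal site: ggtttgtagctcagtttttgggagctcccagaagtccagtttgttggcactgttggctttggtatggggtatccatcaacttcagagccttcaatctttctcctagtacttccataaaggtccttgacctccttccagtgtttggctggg
Last site: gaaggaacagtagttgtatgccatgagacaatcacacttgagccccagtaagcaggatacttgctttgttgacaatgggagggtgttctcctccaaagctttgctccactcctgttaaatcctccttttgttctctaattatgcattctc

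The 191 sites at a concentration of at least 4, a mean of 16 normalized reads, had a median DKO minus WT difference of -1.11. DKO signal was therefore 46.3% of WT at the median site. Their median concentration was 5.72 in WT and 4.50 in DKO. The middle 50% of sites had differences between -1.54 and -0.86, and the whole range ran from -3.41 to 0.37. Among these sites, 188 (98.4%) were lower in DKO, against 57.8% of all 60226 sites at this level. By more than 1.5-fold, the fold threshold of the study's methods, 179 (93.7%) were lower, against 12.4% of all sites. None was higher by that fold, against 5.4%. The 83 sites below a concentration of 4 were noisier, and with them the median was -1.20 over all 274.

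Neither side of the stretch showed this shift. In the 5 Mb below it, the median difference was 0.02 over 147 sites, with 48.3% of sites lower in DKO. In the 5 Mb above it, the median was -0.13 over 105 sites, with 61.9% lower. The rest of chromosome 6 had a median of -0.06 and the other chromosomes -0.07. Added up as linear reads, the sites of the stretch held 47.2% of the WT signal in DKO, whereas the sites of the 5 Mb below and above held 100.5% and 95.3%. The plot of WT against DKO concentration shows these 3 sets of sites.

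**Figure D1:**
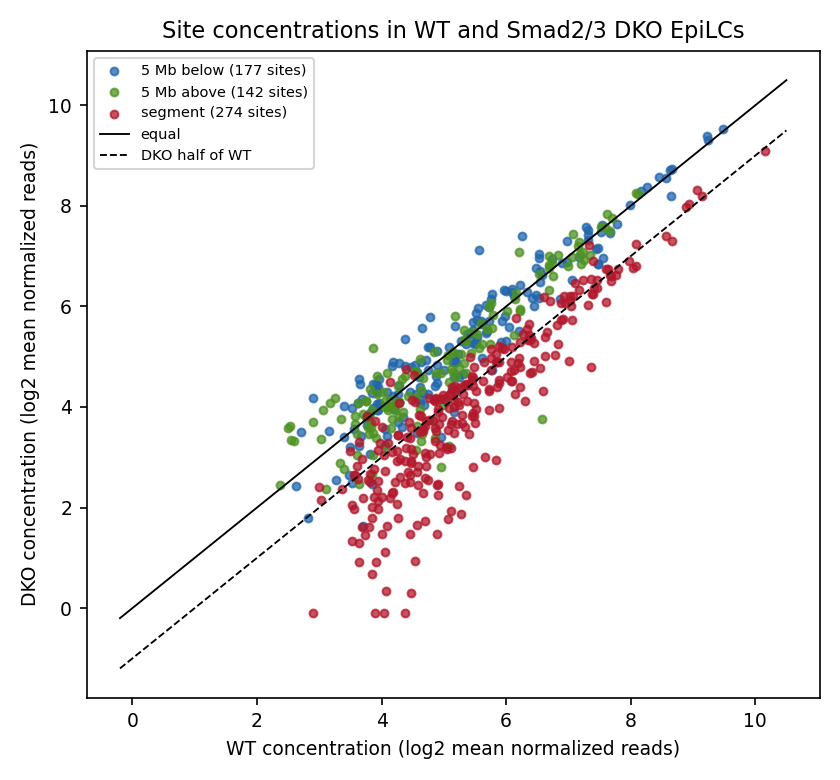
Concentration (log2 mean normalized reads) in WT EpiLCs, x axis, and Smad2/3 DKO EpiLCs, y axis, of each of the 274 sites of the stretch (red), the 177 sites in the 5 Mb below it (blue) and the 142 in the 5 Mb above it (green). Red points at higher concentrations follow the dashed line, where DKO is 1 log2 unit under WT, and many weaker ones fall further below it. The blue and green points follow the line of equal values.

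Single windows of 1 Mb with a low median were rare elsewhere in the table, and the length of runs was not measured. Of 2482 windows of 1 Mb in the genome with at least 5 such sites, 24 had a median below -0.585 (log2 of 1.5), and 10 of these were the windows wholly inside the stretch with enough sites. The lowest median outside it was -0.90. Only 3 windows had a median above 0.585. Sites were also sparser in the stretch, with 24.4 per Mb, against 35.4 in the 5 Mb below and 28.4 in the 5 Mb above.

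The difference varied less at strong sites than over the whole stretch. At the 52 sites at a concentration of 6 or more, a mean of 64 normalized reads, the median difference was -1.04, with an interquartile range of 0.34. The same sites on the other chromosomes had an interquartile range of 0.35 around a median of -0.04. The SD over sites was 0.40 in the stretch and 0.32 on the other chromosomes, and 84.6% of sites against 90.8% lay within 0.5 of their own median. The strong sites ranged from -2.57 to -0.10. At the 24 sites at a concentration of 7 or more, the median was again -1.04, at 48.5% of WT, with an interquartile range of 0.27 and a range of -1.51 to -0.10. All 52 sites were lower in DKO, against 55.5% of such sites on the other chromosomes, and 49 (94.2%) by more than 1.5-fold, against 5.13%.

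At weaker sites the difference was larger and more scattered. The median was -1.08 for concentrations of 6 to 7 (28 sites), -1.14 for 5 to 6 (54 sites), -1.18 for 4 to 5 (85 sites), -1.67 for 3 to 4 (71 sites) and -2.13 for 2 to 3 (12 sites). In those bins the other chromosomes had medians between -0.14 and -0.05. The interquartile range in the stretch went from 0.42 to 0.57, 0.83, 1.02 and 1.42 in the same order, beside 0.42, 0.53, 0.70, 1.08 and 2.07 on the other chromosomes. At 4 sites of the stretch DKO was at its lowest listed value of -0.10, which 164 sites of the whole table share. In the bin of 2 to 3, the median concentration was 3.54 in WT and 1.48 in DKO. How far this lowest value, or which weak sites were listed, shaped the medians was not tested. The plot of the difference by concentration shows both trends.

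**Figure D2:**
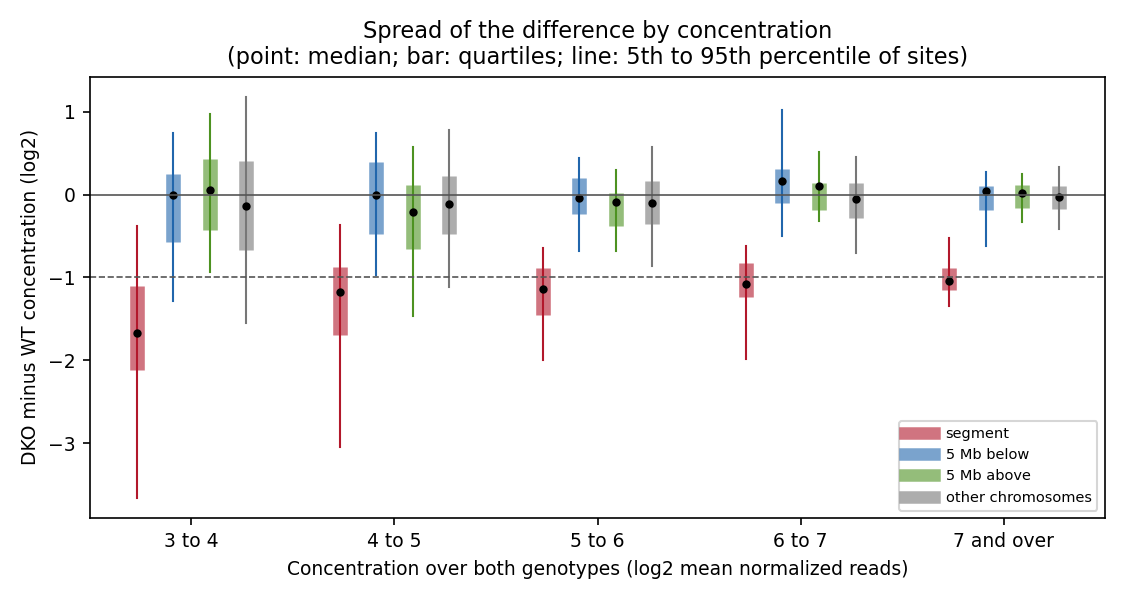
DKO minus WT concentration (log2), y axis, of sites in bins of their concentration over both genotypes, x axis, in the stretch (red), the 5 Mb below (blue), the 5 Mb above (green) and the other chromosomes (grey). Points are medians over sites, bars the quartiles and lines the 5th to 95th percentiles. In the stretch the median goes from -1.67 at 3 to 4 to -1.04 at 7 and over, while the bars shorten.

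Within 0.5 of the median of the stretch lay 138 of the 191 sites (72.3%). On the other chromosomes 78.2% of sites were that close to their own median. More of the deviating sites lay under the median of the stretch than above it. Those more than 1.5-fold under it were 36 (18.8%), against 9.9% on the other chromosomes under their own median. Those more than 1.5-fold above it were 11 (5.8%), against 7.0%. Both sides leaned the same way, with 12.2% under and 6.1% above in the 5 Mb below, and 11.4% and 5.7% in the 5 Mb above. At sites of 6 or more in the stretch, 3 lay that far under their median and 2 above it. The 36 lower sites comprised 5 promoter, 13 intronic and 18 intergenic sites with a median concentration of 4.60. A site can pass the minimum of 4 mainly through its WT reads, as the Capg promoter did (4.89 in WT, 1.48 in DKO). The 144 sites nearer the median had a median concentration of 5.44, and 29 of them were at promoters.

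Among sites at a concentration of at least 4, the 5 with the lowest difference were all at promoters or in introns. These 5 were close to that minimum, at concentrations of 4.02 to 4.52. Weaker sites went lower, to -4.48 at an intergenic site (chr6:73335000-73335340, concentration 3.44). At the promoter of Capg, which encodes an actin capping protein, the concentration was 4.89 in WT and 1.48 in DKO, a difference of -3.41 (chr6:72544310-72544790). An intronic site of Kcmf1 (chr6:72851830-72852160) was at 5.27 and 1.88, a difference of -3.39. An intronic site of Dnah6, which encodes an axonemal dynein heavy chain, was at 5.06 and 1.77, a difference of -3.29 (chr6:73090780-73091040). The DKO levels of these 3 sites lay between 9.4% and 10.2% of WT.

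The Vamp5 promoter, shown above, was at 5.11 in WT and 1.94 in DKO, a difference of -3.17 (chr6:72380280-72380640). The site at chr6:77348260-77348690, in an intron of Ctnna2, was at 5.36 and 2.25, a difference of -3.11. Among strong sites, the distal site printed above (chr6:76378600-76379600) went furthest, at 7.37 in WT and 4.80 in DKO, or 16.8% of WT.

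Only 3 of the 191 sites were not lower in DKO. They were intergenic sites at chr6:80009140-80009620, with 4.13 in WT and 4.50 in DKO, at chr6:70020100-70020500, with 4.40 and 4.76, and at chr6:70477060-70477850, with 4.52 and 4.64. The next highest differences were -0.10 at the last site, in the Lrrtm4 intron, and -0.20 at chr6:79425690-79425860.

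Along the stretch the difference was smaller near both ends and varied between them. In consecutive windows of 1 Mb from its start, the medians were -0.81, -1.0, -1.06, -1.17 and -1.16 over the first 5 Mb. They were -1.11 and -1.17 in the next windows, the first of them with only 3 sites. The lowest values, -1.48 and -1.52, fell between 7 and 9 Mb, over 20 and 17 sites. They were then -1.05 and -0.95, and the last 0.23 Mb stood at -0.10 over 3 sites. Windows in the 5 Mb below ranged from -0.18 to 0.08, and those in the 5 Mb above from -0.35 to 0.03. The plot along the chromosome shows all these sites.

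**Figure D3:**
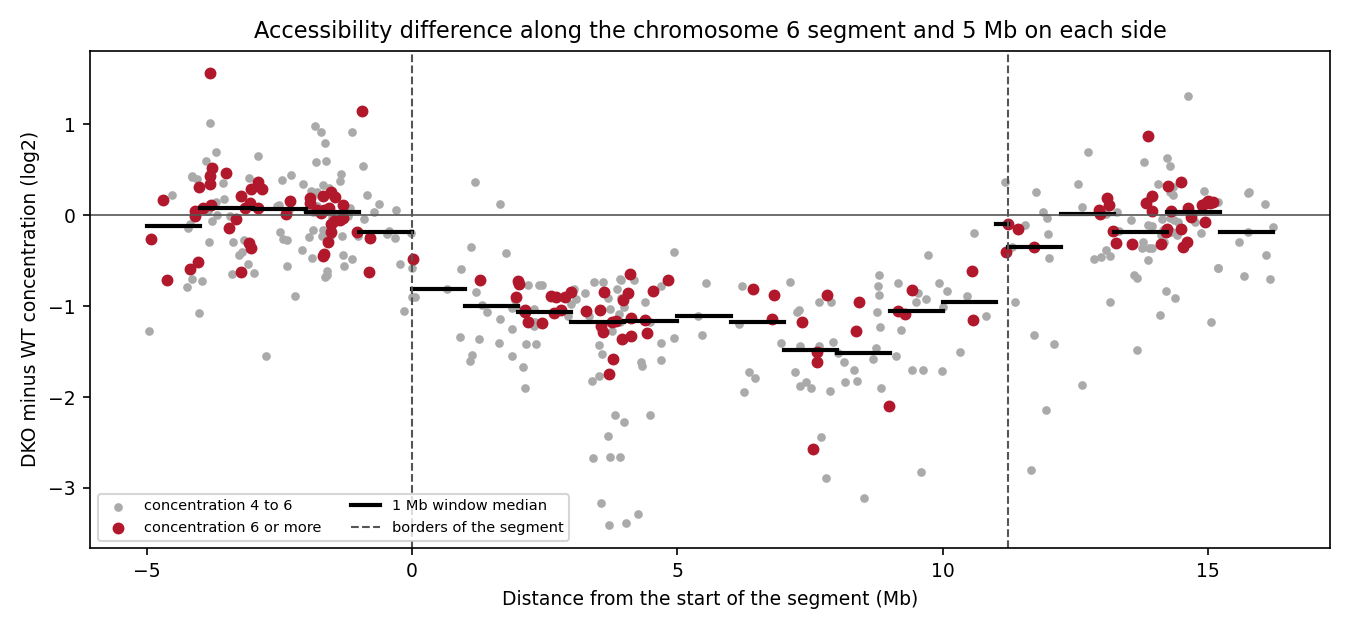
DKO minus WT concentration (log2), y axis, against the distance from the start of the stretch in Mb, x axis, for sites with a concentration of at least 4, with those of at least 6 in red. Black lines are medians of 1 Mb windows and dashed lines the borders; the windows inside lie between -1.52 and -0.81 but for the last 0.23 Mb, at -0.10, and those outside between -0.35 and 0.08.

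The lower border fell inside the immunoglobulin kappa locus, which carries the V, J and C segments that B cells join to make light chains. Of its segments in the annotation, 58 lay below the border and 110 in the stretch. The first 5 Mb inside had a median of -1.06, a step of -1.08 from the 5 Mb outside. Near the border the step was smaller. The 10 nearest sites inside had a median of -0.86 and the 10 nearest outside -0.20.

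The first 3 sites inside, at chr6:68829320-68829610, chr6:68829870-68830230 and chr6:68852470-68853330, had differences of -0.58, -0.90 and -0.48. The 3 nearest outside at a concentration of at least 4, from the border outwards, had -0.20, -1.05 and -0.54. These 2 sets overlapped, so that the sites themselves set no sharp edge. Weaker sites about as near on the outside, under a concentration of 4, had -2.06 and -1.39. Of strong sites, the last below the border was at 6.41 in WT and 6.16 in DKO, 0.80 Mb away. The first inside was at 7.39 and 6.91, and the second, 1.27 Mb in, was at 6.37 and 5.66.

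The upper border fell inside the gene Lrrtm4 (chr6:80018858-80810162). The last 5 Mb inside had a median of -1.23, a step of -1.10 to the 5 Mb outside. Here the step near the border was small. The 10 nearest sites inside had a median of -0.72 and the 10 nearest outside -0.35, with outside differences as low as -2.80. The last 3 sites inside had differences of 0.37, -0.41 and -0.10. The first 3 outside at a concentration of at least 4, all in introns of Lrrtm4, had -0.35, -0.95 and -0.15.

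The last strong site near the general level was at chr6:79400830-79401600, 0.66 Mb before the upper border, with 6.88 in WT and 5.73 in DKO. The 2 strong sites after it were the Lrrtm4 promoter, with 6.60 and 6.19, and the last site, with 7.33 and 7.23. Of the weaker sites over the same 0.66 Mb, those at chr6:79651310-79651700 (-1.11) and chr6:79926790-79927000 (-1.58, concentration under 4) were at or below the general level. The other weaker ones there were those at -0.20 and 0.37, and that at chr6:79527560-79527770 (-0.71, concentration under 4). Over the part of Lrrtm4 above the border, 11 sites had a median of -0.35.

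Every class of site was lower in DKO. At 35 promoter sites, whose midpoint is within 1 kb of a transcription start site (TSS), the median difference was -1.08. It was -1.27 at 40 intronic and -1.08 at 114 intergenic sites, and the 2 exonic sites had -1.03 and -0.95. On the other chromosomes promoter sites had a median of 0.01 and intronic and intergenic sites -0.12 each. At sites of 6 or more the medians were -1.04 for 23 promoters and -1.0 for 24 intergenic sites, with -1.21 for only 4 intronic sites. At concentrations of 4 to 5 they were -2.43 for 7 promoters, -1.62 for 22 intronic and -1.09 for 56 intergenic sites.

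**Figure D4:**
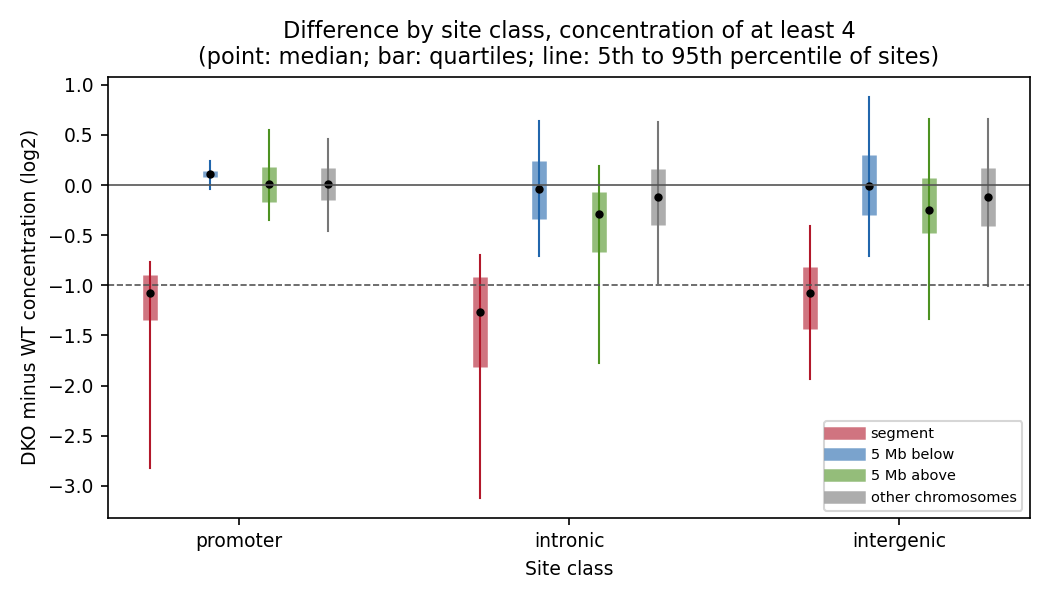
DKO minus WT concentration (log2), y axis, of promoter, intronic and intergenic sites with a concentration of at least 4, x axis, in the stretch (red), the 5 Mb below (blue), the 5 Mb above (green) and the other chromosomes (grey), with points for medians, bars for quartiles and lines for 5th to 95th percentiles over sites. The medians of the stretch, from -1.27 to -1.08, lie under those of every other region, the lowest of which is -0.29.

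The stretch was poorer in promoters and richer in remote sites than the other chromosomes. Of its 274 sites, 36 (13.1%) were at promoters, 62 (22.6%) in introns, 3 in exons and 173 (63.1%) between genes. On the other chromosomes these shares were 19.9% at promoters, 30.1% in introns and 46.0% between genes. The 5 Mb below had still fewer at promoters, 6.8%, with 59.3% between genes, and the 5 Mb above had 29.6% and 31.0%. With a concentration of at least 4, 21.5% of its sites were over 500 kb from a TSS, against 3.6% on the other chromosomes. This share was 8.8% in the 5 Mb below and 9.5% in the 5 Mb above. The kappa segments are not among the curated transcripts, so sites between them count as intergenic, some as over 500 kb from a TSS. The difference changed little with distance. Its median was -1.10 within 5 kb of a TSS, -1.01 from 5 to 50 kb, -1.11 from 50 to 500 kb and -1.20 beyond.

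Short sequence motifs of factors that act in these cells were counted in the 300 bases around each site's midpoint, on both strands, as exact letters. The POU octamer ATGCAAAT was found at 10 sites of the stretch (3.65%), against 3.16% of all listed sites. The Otx2 core GGATTA was found at 23 sites (8.39%), against 8.71%. The Tcf/Lef core CTTTGAT was found at 10 sites (3.65%), against 4.37%, and TGTGGATT of FoxH1, a partner of Smad2 and Smad3, at 1 site (0.36%), against 1.07%. TGTGGATT followed by A also holds GGATTA, and the other strings do not contain each other. In promoters of the RefSeq table, of 300 bases, they occurred in 1.74%, 7.06%, 3.73% and 0.86% respectively.

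Among sites with a concentration of at least 4, the median difference was -1.27 at 7 octamer sites, -1.38 at 16 GGATTA sites and -1.42 at 7 CTTTGAT sites, beside -1.11, -1.09 and -1.11 at the sites without each, and the quartiles of sites with and without a match overlapped. The octamer and CTTTGAT sites were also weaker, with median WT concentrations of 5.21 and 5.06 against 5.72 and 5.76 without them. The GGATTA sites were not weaker, at 5.91 against 5.72. The strongest octamer site and the strongest GGATTA site outside promoters are shown with the match in capitals, on the plus strand. The octamer lies at chr6:77191805-77191864, in an intron of Ctnna2 (site at 8.04 in WT and 6.77 in DKO), and GGATTA at chr6:72677762-72677819, in an intron of Tcf7l1 (8.56 and 7.40).
Octamer site: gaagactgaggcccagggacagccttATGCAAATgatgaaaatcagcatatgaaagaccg
GGATTA site: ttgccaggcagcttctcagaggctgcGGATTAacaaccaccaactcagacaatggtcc

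Genes were unevenly spread over the stretch, which holds a dense part, a desert and the long gene Ctnna2. The kappa locus at the lower end held 23 of the 191 sites, with a median difference of -0.90, 21 of them lower in DKO. From Rpia to Suclg1, 2.51 Mb with most of the genes, 82 sites had a median of -1.10, and each was lower by more than 1.5-fold. The 3.60 Mb between Suclg1 and Ctnna2, with no site at a coding promoter, held 44 sites with a median of -1.34. Ctnna2 itself spans 1.10 Mb, and its 18 sites had a median of -1.50. The 2.04 Mb between Ctnna2 and Lrrtm4 held 22 sites with a median of -0.94.

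Of 54 protein-coding genes that start in the stretch, 37 had a listed site within 1 kb of a TSS, at 35 distinct sites because Ptcd3 and Polr1a share a site, as do Elmod3 and Retsat. All 35 sites were lower in DKO, and 34 by more than 1.5-fold, while 48.1% and 3.95% of promoter sites on the other chromosomes were. Their median difference was -1.15, from -3.41 at Capg to -0.41 at Lrrtm4. Promoter sites had a median of 0.11 in the 5 Mb below (12 sites), 0.03 in the 5 Mb above (42 sites) and 0.01 on the other chromosomes (14216 sites).

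**Figure D5:**
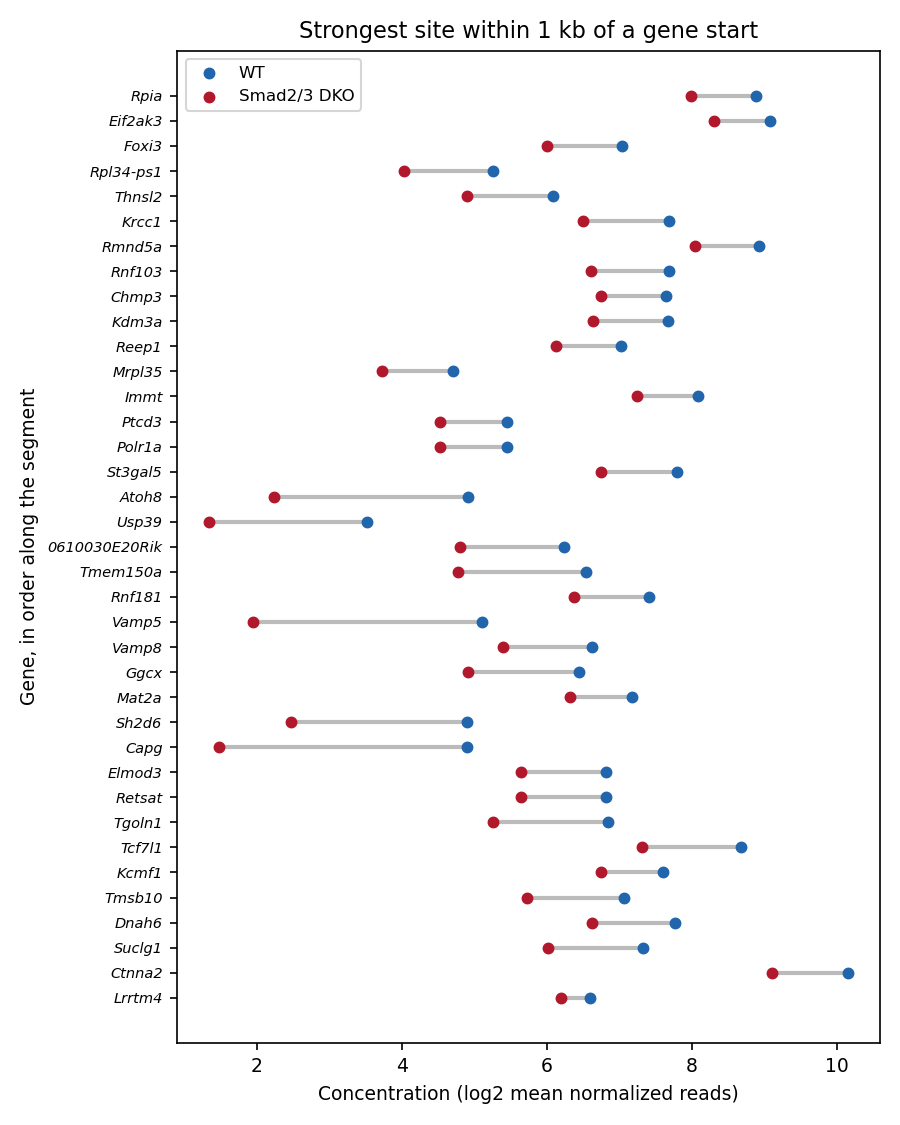
Concentration (log2 mean normalized reads), x axis, of the strongest site within 1 kb of a TSS of 37 protein-coding genes, y axis, in their order along the stretch, in WT (blue) and Smad2/3 DKO (red) EpiLCs. DKO lies left of WT for every gene, by 0.41 at Lrrtm4 to 3.41 at Capg.

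Among 6 genes of Wnt signalling and transcription, 5 had a promoter site, with a median difference of -1.04, near that of all coding promoters of the stretch. The site of Tcf7l1 was at 8.67 in WT and 7.31 in DKO, or 39.0% of WT (chr6:72787210-72789940). Over the whole Tcf7l1 gene, 16 sites were listed, each lower in DKO, with a median of -1.17. Foxi3, a forkhead factor of ectoderm, was at 7.04 and 6.00. Kdm3a, a histone H3K9 demethylase, was at 7.67 and 6.63. Polr1a, the largest subunit of RNA polymerase I, was at 5.45 and 4.53. Atoh8, a bHLH factor, had a weaker site (concentration 4.12), at 4.91 and 2.24, or 15.7% of WT. Its difference of -2.67 was near the median of -2.43 of the 7 promoter sites of the stretch at concentrations of 4 to 5. Smyd1, a muscle methyltransferase, had no site at its start.

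The 4 genes of mitochondria all had a site, with a median of -0.95. Immt, which organises the cristae, was at 8.08 in WT and 7.24 in DKO. Suclg1, a citric acid cycle enzyme, was at 7.32 and 6.02. Mrpl35, of the mitochondrial ribosome, was at 4.71 and 3.73, and Ptcd3, of the same ribosome, shares the site of Polr1a. Their differences lay between -1.30 and -0.84.

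All 7 genes of the endoplasmic reticulum (ER), trafficking and vesicles had a site, with a median of -1.08. Eif2ak3, which encodes the ER stress kinase PERK, had the smallest difference, -0.76, at 9.07 in WT and 8.31 in DKO. Chmp3, of the ESCRT-III complex, was at 7.64 and 6.74, and Reep1, which shapes ER tubules, at 7.02 and 6.12. Rnf103, an ER ubiquitin ligase, was at 7.69 and 6.61. Vamp8, a SNARE of late endosomes, was at 6.62 and 5.40, and Tgoln1, of the trans-Golgi network, at 6.84 and 5.26. Vamp5 was the lowest of the group, as given above.

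Of 5 metabolic genes, 4 had a site, with a median of -1.04. Rpia, of the pentose phosphate pathway, was at 8.88 in WT and 7.98 in DKO. Mat2a, which makes S-adenosylmethionine, was at 7.17 and 6.32. Ggcx, the vitamin K-dependent carboxylase, was at 6.44 and 4.91, and Retsat, a retinol saturase, at 6.82 and 5.64. Fabp1, the fatty acid carrier of liver, had none.

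Of 3 genes of adhesion and synapses, 2 had a promoter site. The site at the Ctnna2 start (chr6:77978690-77980490) was the strongest of the stretch, at 10.15 in WT and 9.10 in DKO, or 48.3% of WT. Lrrtm1, nested in Ctnna2, had its strong site in an exon 1343 bases from the TSS, at 9.15 and 8.20, outside the 1 kb limit. Lrrtm4 was at 6.60 and 6.19, or 75.3% of WT, as the only promoter of the stretch under 1.5-fold.

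At the other coding genes with a site, differences lay between -3.41 and -0.86. Rmnd5a, a subunit of a ubiquitin ligase complex, was at 8.93 in WT and 8.04 in DKO, and Kcmf1, another ligase, at 7.6 and 6.74. Dnah6 was at 7.77 and 6.62 and St3gal5, the GM3 ganglioside synthase, at 7.79 and 6.74. Tmsb10, an actin monomer binder, was at 7.06 and 5.73, and Krcc1 at 7.69 and 6.50. These 6 sites were at 39.8% to 55.1% of WT.

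Rnf181 was at 7.41 in WT and 6.37 in DKO, Elmod3 shares the site of Retsat, and Thnsl2 was at 6.08 and 4.90. Tmem150a was lower, at 6.54 and 4.77, as was 0610030E20Rik at 6.23 and 4.80. Rpl34-ps1, which the annotation lists as coding, was at 5.25 and 4.03. The weakest were Sh2d6, at 4.90 and 2.47, Capg, at 4.89 and 1.48, and Usp39, a splicing factor, at 3.52 and 1.34. All 3 of these had a difference under -2, and Usp39 lies below the concentration minimum.

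No promoter site was listed for the other 17 coding genes. They include Cd8a and Cd8b1, the CD8 coreceptor chains of T cells, and the 6 Reg genes, lectins of gut and pancreas, so no difference can be given at these starts. Of the 110 kappa segments, 1 had a site within 1 kb, Igkv6-32, at 4.07 in WT and 0.34 in DKO with a concentration under 4. Of 81 other genes, among them 36 long non-coding RNAs and 33 pseudogenes, 8 had a site, and all 8 were lower in DKO, with differences from -1.93 to -0.70.

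The differences of the 10 strongest WT sites of the stretch fell between -1.36 and -0.76, with a median of -1.0. Beside those of Ctnna2, Lrrtm1, Eif2ak3, Rmnd5a, Rpia, Tcf7l1 and Immt, they were 3 sites away from promoters. These were the GGATTA site in the Tcf7l1 intron, the octamer site in the Ctnna2 intron, and a site 6663 bases from the start of the long non-coding RNA Particl (chr6:72431150-72432890), at 8.09 in WT and 6.80 in DKO. The SD over the 10 differences was 0.21. Their DKO levels lay between 39.0% and 59.0% of WT.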

How the data were processed

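ATAC-seq of WT and Smad2/3 DKO EpiLCs (3 differentiations each, 1 clone per genotype) was analysed from 1 deposited table. Read pairs were mapped by the authors with bowtie2 (mm10). Mixed, discordant, multiply mapped and blacklisted reads were left out, as were PCR duplicates (Samtools). DANPOS2 called sites on the triplicates against genomic DNA, and DiffBind gave the concentrations. Versions, normalization and any Tn5 shift are not given in the sources used here; a shift would move site edges by a few bases. The values the authors deposited are log2 concentrations per site, overall and per genotype. The other 3 columns, their log2 fold, p-value and FDR, were not used. Columns per library were not analysed here, so depth and counting error are unknown.

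The difference is the DKO minus the WT concentration. Sites with an overall concentration of at least 4 were used unless stated, with a fold of 1.5 and flanks of 5 Mb. Classes come from 45756 curated RefSeq transcripts on GRCm38.p6, the build of the files (all sites lay within its chromosomes), by midpoint: promoter (within 1 kb of a TSS), exon, intron, then intergenic. Coordinates of sites are as listed. The stretch, gene lists and motifs were chosen with earlier results of these data known. The genes and sites named were every coding gene starting in the stretch with a site within 1 kb, the 10 strongest WT sites, the 5 lowest and 5 highest differences, 3 sites on each side of each border, Smad2, Smad3, and sites picked after their values were seen for the sequences and the strong sites near the borders. Other minima, folds, centrings, site subsets, flanks, windows and the GENCODE annotation were tried. The code was tested on simulated data. Python 3.11.15, numpy 2.4.6 and pandas 2.3.3 were used.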

Additional observations from a re-analysis of the deposited data

How the results depend on the processing

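Over 11 summary values of the stretch, 17 alternatives gave 72 values, and 58 lay within the 95% binomial interval of the reported value over sites. None changed sign, which is no check, as shares and interquartile ranges cannot and the stretch was chosen by its low differences. The median difference of -1.11 was -1.20 with no minimum on the concentration, -1.03 once the median of all sites (-0.08) was taken off, and -1.24 as a mean over sites. The intergenic median was -1.20 with no minimum. The share of sites lower in DKO was 100.0% at a concentration of at least 5 and at promoter sites. The share lower past the fold was 61.8% at a fold of 2, 97.4% where DKO under 80% of WT sufficed, and 97.1% at promoter sites, whose interquartile range was 0.45 against 0.68. Borders moved most. The step at the lower border, -1.08, was -0.89 with 2 Mb on each side and -0.65 with 10 sites on each side, and that at the upper border, -1.10, was -0.70 and -0.37. The cause was not tested, though the alternatives with fewer sites rest on those nearest the borders. Leaving out 1 differentiation was not run, as only group values were used. No paired analysis was possible because the table holds no value per library. The depth behind each value is unknown.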
